A study of Mus musculus with 6 samples.

Results

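Long intergenic noncoding RNAs (lincRNAs) are transcripts longer than most small RNAs that lie between protein-coding genes and carry no long reading frame. The deposited table annotates 2570 of its 33919 genes as lincRNA, and the 57 described here are those selected on their level, a mean of at least 1 FPKM (fragments per kilobase of gene, scaled to library size) over all 6 libraries. H19, Meg3, Rian and Mirg were left out by name, which removed 2 genes past that level. The choice rested on the level averaged over both genotypes, so the levels themselves are given as a description. A member that is high in a single group can pass on that group alone: 6 members averaged under 1 FPKM in the KO-labelled libraries and another 6 in the WT-labelled libraries. Just inside the threshold lay Gm40477 at 1.02, Halr1 at 1.02 and 1700096K18Rik at 1.03 mean FPKM, and just outside lay Gm50321 at 0.992, Gm27252 at 0.991 and Gm29650 at 0.985.

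The libraries came from tissue labelled aorta of mice in 2 genotypes, KO with Ang II (3 libraries) and WT with Ang II (3 libraries). Ang II (angiotensin II), a hormone that constricts vessels, was given to every group, and no comparison with untreated tissue is made. The series title names endothelial OTUD1, a deubiquitinating enzyme, but the labels give the allele only as KO and name no Cre line, no strain and no age. In the KO-labelled libraries Otud1 was higher, at 14.5, 15.6 and 16.8 CPM (counts scaled by TMM, edgeR's library scaling, to a common library size), against 8.83, 11.6 and 9.83 CPM in the WT-labelled libraries (adjusted p 0.0039). This is not the direction of a lost transcript, but the libraries are of bulk tissue and the title names endothelial OTUD1. The Otud1 level therefore cannot show whether the label holds, and the groups are called by their labels throughout. According to the design text each group had 3 mice, but no label ties a library to an animal. The p-values therefore measure only how far these libraries spread, which may be technical.

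The libraries held 62.3 M to 71.5 M counts (M, megacounts). Leaving aside the mitochondrial genes and their copies on chromosome 1, 23.0 M to 23.4 M counts remained in each KO-labelled library and 17.3 M to 19.4 M in each WT-labelled library. The 57 lincRNAs took 0.44% to 0.467% of those remaining counts in the KO-labelled libraries and 0.454% to 0.464% in the WT-labelled libraries. Markers of skeletal muscle were far more abundant than those of the vessel wall: the summed FPKM of 10 skeletal muscle genes was 14900 to 16500 in the KO-labelled libraries and 11100 to 12100 in the WT-labelled libraries. That of 7 smooth muscle genes was 49.9 to 54.8 in the KO-labelled libraries and 157 to 173 in the WT-labelled libraries. A set of 6 fibroblast genes summed to 34.0 to 34.8 FPKM in the KO-labelled libraries and 87.8 to 101 in the WT-labelled libraries, and 4 neutrophil genes summed to 34.2 to 40.6 FPKM in the KO-labelled libraries and 2.61 to 3.79 in the WT-labelled libraries. None of the marker genes was at 0 in all libraries. The RNA protocol speaks of an adipose type, and 5 brown adipocyte genes summed to 824 to 924 FPKM in the KO-labelled libraries and 746 to 848 in the WT-labelled libraries. Those ranges overlapped, and by the test described below 3 of these genes were higher and 2 lower. Of 6 endothelial genes, 2 were higher and 3 lower. The FPKM are not TMM-scaled: the muscle marker Tnnc2 averaged 4820 FPKM in the KO-labelled libraries and 4320 in the WT-labelled libraries, with a fitted log2 fold change of 0.01. The part that differences in makeup play in the values below was not tested, and in bulk tissue fewer cells of a type and less RNA per cell cannot be told apart.

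Nuclear lincRNAs such as Neat1 and Malat1 act where they are made: Neat1 is the scaffold of paraspeckles, bodies that hold RNA-binding proteins, and Malat1 collects in nuclear speckles among splicing factors. Cytoplasmic lincRNAs can act by binding proteins or microRNAs, as Norad does for Pumilio proteins and Cyrano for miR-7. A further class, the snoRNA host genes, carry in their introns the small nucleolar RNAs that guide the modification of ribosomal RNA, while their spliced exons are often short-lived. Libraries were made from poly(A) RNA, and Malat1 and the long isoform of Neat1 end in a triple helix in place of an added poly(A) tail, while the short Neat1 isoform is polyadenylated.

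The sequences of a few members are printed here because they hold the elements these RNAs are known for. Malat1 and Neat1 share a 3′ end in which a pair of U-rich motifs clasp an A-rich tract (all 3 runs in capitals, written as DNA). The Malat1 stretch is bases 6606 to 6685 of the 6983-nt transcript and the Neat1 stretch is bases 20676 to 20771 of the 20771-nt transcript. The Malat1 stretch was cut where its unbroken run of A ends, so any further part of its A-rich tract is not shown. The annotated Malat1 transcript continues past that point.
Malat1: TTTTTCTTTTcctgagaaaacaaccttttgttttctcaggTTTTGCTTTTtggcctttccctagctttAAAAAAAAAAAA
Neat1: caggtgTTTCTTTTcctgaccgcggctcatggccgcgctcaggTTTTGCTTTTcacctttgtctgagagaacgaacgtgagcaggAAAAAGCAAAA

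2900097C17Rik is the mouse Norad gene, and its 4915-nt transcript holds 11 copies of the Pumilio motif TGTANATA on its own strand (capitals), of which the first 4 are shown because they hold every middle base found among the 11. That is 2.24 copies per kb. Among 6058 annotated lincRNA genes 13.9% hold any copy, and of 501 such genes with a transcript of at least 3 kb only 2900097C17Rik itself holds as many as 11. Of the 57 members, 12 hold at least 1 copy.
Element 1: gtcctgTGTATATAatatga
Element 2: acatgcTGTAAATAcctttt
Element 3: tttcttTGTACATAgtgtat
Element 4: ctgctgTGTATATAgtggac

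Oip5os1 is the mouse Cyrano gene, known for a site with extended pairing to miR-7 that leads to loss of the microRNA. The microRNA is printed with its seed (bases 2 to 8) in capitals and the site, bases 2935 to 2959 of an 8300-nt transcript, with the runs complementary to miR-7a-5p in capitals: 13 nt towards the microRNA's 3′ end, then 4 unpaired bases, then the 7-nt seed match. A seed match alone is common, since 26.3% of the members hold at least 1 and the Oip5os1 transcript holds 2.
miR-7a-5p: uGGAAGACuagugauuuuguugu
Oip5os1 site: ACAACAAAATCACcaatGTCTTCCa

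The snoRNA hosts among the members, other than Epb41l4aos, are printed by their first 30 bases, with the opening pyrimidine run in capitals. Such a run, starting at a C, marks the 5′ terminal oligopyrimidine class of transcripts, whose translation is controlled together with that of ribosomal proteins. For each gene the annotated transcript with the longest run is shown, 1 of 5 for Snhg6, 1 of 10 for Snhg12, 1 of 1 for Snhg18 and 1 of 7 for Snhg20. The runs are 7, 8, 6 and 0 bases long in that order, and Snhg18 opens with T and not C. Of 9101 annotated lincRNA transcripts, 2.5% open with a C and at least 5 pyrimidines.
Snhg6: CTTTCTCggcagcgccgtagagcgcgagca
Snhg12: CCTTTCTCgcttcatccgcggtccctgtct
Snhg18: TCCTCTagccccgcctcttcccgagatggg
Snhg20: acacaggtttgcaacagaaccagctgggtt

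Gm10076 is annotated as a lincRNA but its 384-nt transcript is 99.5% identical over 383 nt to Rpl41, a gene for a protein of the large ribosomal subunit. Bases 42 to 119 hold a reading frame of 25 codons and a stop that is also found, letter for letter, in 3 of 7 Rpl41 transcripts (start and stop codons in capitals).
Gm10076 frame: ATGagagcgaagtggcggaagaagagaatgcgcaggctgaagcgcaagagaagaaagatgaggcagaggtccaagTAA

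By level, 6 of the 57 lincRNAs averaged at least 10 FPKM, 22 lay between 1 and 2, and the median was 2.3 FPKM. Gm10076 was the highest, at 83.5 ± 45.2 FPKM in the KO-labelled libraries and 79.7 ± 16 in the WT-labelled libraries (SD, n = 3 each, here and in the next sentences). Neat1 followed at 42.1 ± 1.18 FPKM in the KO-labelled libraries and 30.4 ± 1.57 in the WT-labelled libraries. Gm44386 came next at 27.2 ± 2.18 FPKM in the KO-labelled libraries and 33.6 ± 5.47 in the WT-labelled libraries. Neat1 lay above Gm44386 in every KO-labelled library, while the ranges of the pair overlapped in the WT-labelled libraries. AW112010 had 18.9 ± 1.44 FPKM in the KO-labelled libraries and 19.9 ± 0.571 in the WT-labelled libraries, and Oip5os1 had 13.9 ± 0.516 FPKM in the KO-labelled libraries and 13.3 ± 0.413 in the WT-labelled libraries. Neat1, the longest of the transcripts, took 63.0% to 64.6% of the counts of the 57 members in the KO-labelled libraries and 54.8% to 56.0% in the WT-labelled libraries. Most members are little studied: 22 carry a Gm name and 21 a Rik name. They are short and simple transcripts, with a single exon in 11 of them and 2 or 3 exons in 32. Their median length was 1246 nt, as implied by the counts and FPKM and not taken from the annotation. Such implied lengths can exceed the annotated transcript, as for Malat1 (7705 nt against 6983 nt).

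**Figure D1:**
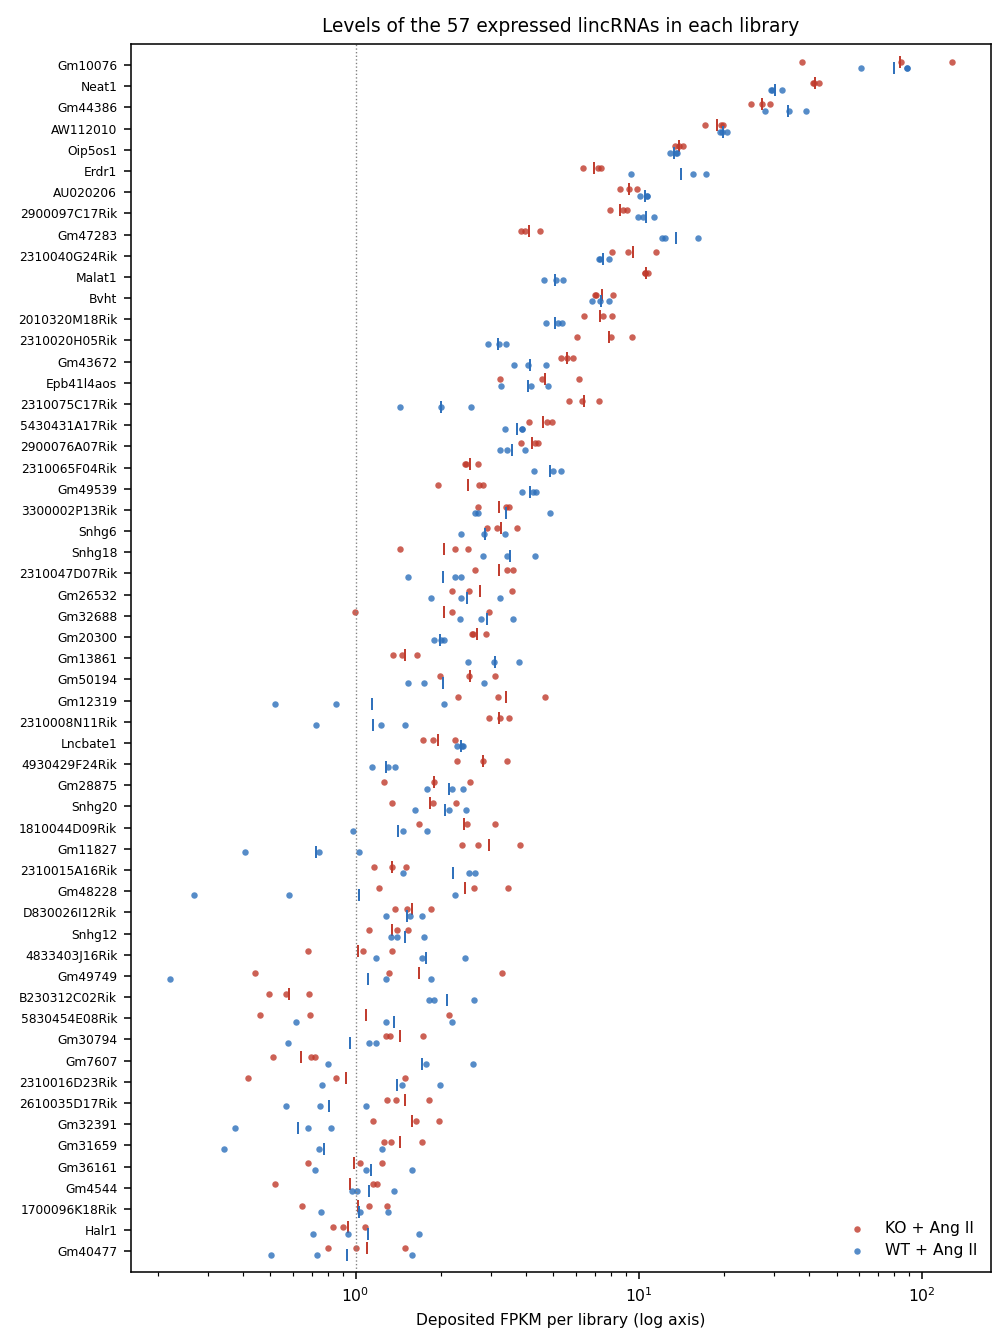
Deposited FPKM (log axis) of the 57 lincRNAs, ordered by mean level, with red points for the 3 KO-labelled libraries, blue points for the 3 labelled WT, vertical ticks for group means and a dotted line at 1 FPKM. Gm10076 is highest and spreads over more than a factor of 3 among the KO-labelled libraries, while Neat1, Malat1 and Oip5os1 have tight replicates.

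Of the 57 lincRNAs, 7 were higher and 9 lower in the KO-labelled libraries at an adjusted p under 0.05 by edgeR's quasi-likelihood test with Benjamini-Hochberg adjustment over 16620 genes. These 16 are 28.1% of the members, beside 22% of all genes tested (11.5% higher and 10.5% lower). The members were chosen by level while the genes tested were not, and only 8101 genes averaged at least 1 FPKM. The shares over all genes for edgeR, and for limma without a filter, therefore come from sets of unlike level. The part that level plays was not tested. The limma fits with a filter used those 8101 genes. The median log2 fold change was -0.09 over the members and -0.02 over all genes tested, with 27 members above 0 and 30 below. The members' values ran from -2.0 to 1.87. At least 2-fold differences were called for 5 lincRNAs in each direction, beside 1.61% of all genes higher and 3.97% lower. The groups did not overlap in CPM for 29 members, or 50.9%, beside 38.6% of all genes. By limma on log2(FPKM + 1), 14 members (24.6%) were higher and 10 (17.5%) lower, beside 32.5% of all genes higher and 8.37% lower in that fit, where the median log2 fold change of all genes was 0.15. With a pseudocount of 0.1 the members' counts were again 14 and 10, beside 32.2% of all genes higher and 8.36% lower. Without a filter on FPKM 9 members were higher and 5 lower, beside 6.57% and 2.65% of all genes. The called members include Gm11827, with a mean under 1 FPKM in the WT-labelled libraries, and B230312C02Rik, with a mean under 1 in the KO-labelled libraries. Each passed the level threshold only through the group where it was high, so their differences are given below as a description.

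**Figure D2:**
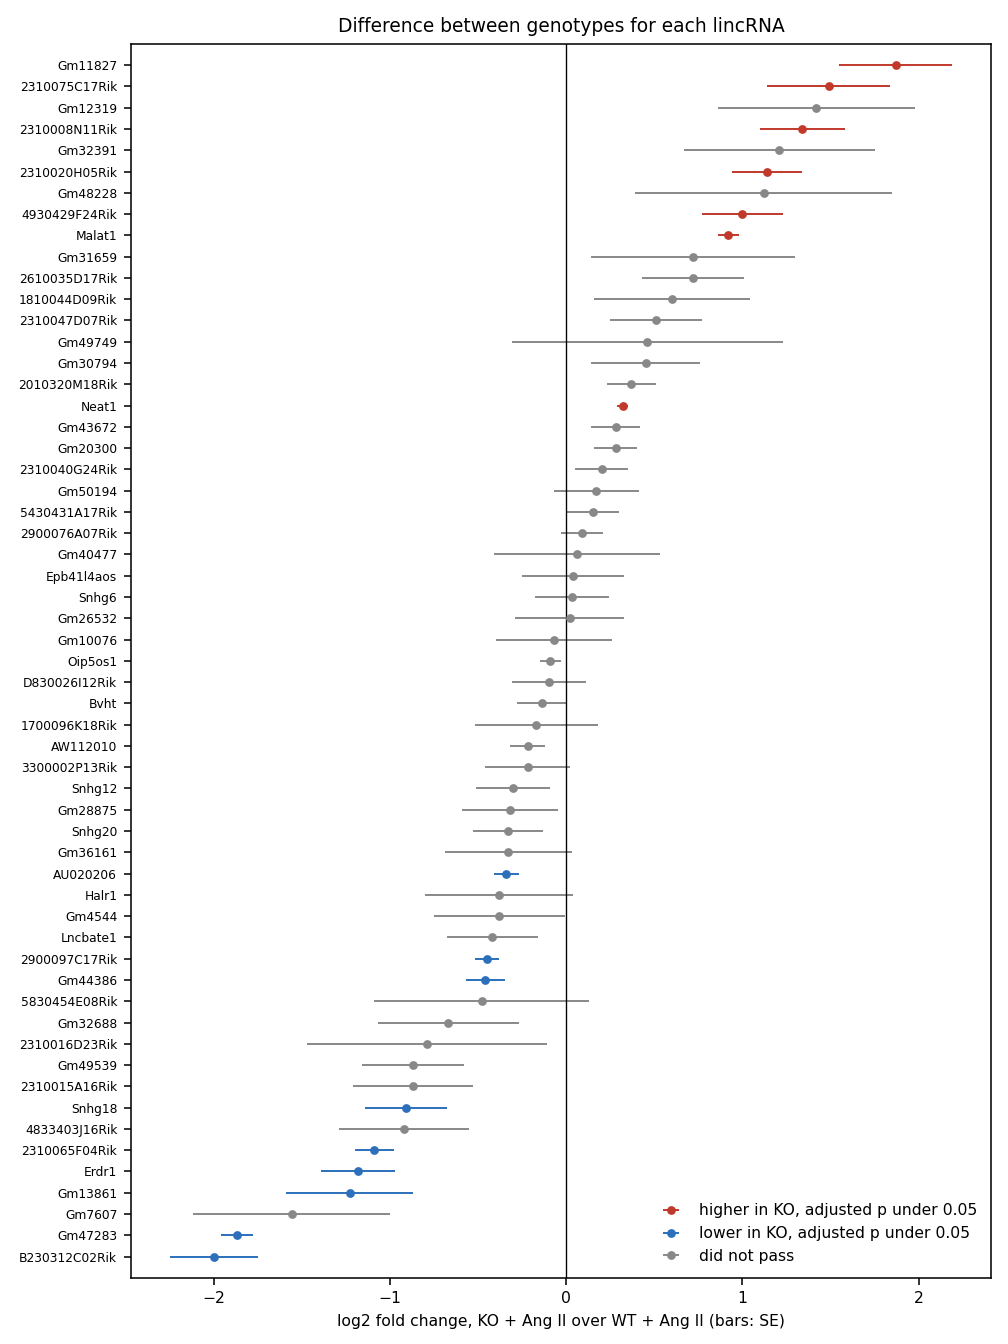
Log2 fold change of each lincRNA, KO-labelled libraries over WT, with bars for the standard error, ordered from the most positive to the most negative. Red marks the 7 higher and blue the 9 lower members at adjusted p under 0.05, and several grey members with folds as large carry wider bars, such as Gm12319 and Gm7607.

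The nuclear pair stood higher in the KO-labelled libraries. Malat1 (chromosome 19, 5795690 to 5802672, minus strand, GRCm38) had 76.0, 77.4 and 78.8 CPM in the KO-labelled libraries, against 41.7, 39.4 and 41.8 CPM in the WT-labelled libraries. Every KO-labelled library lay above every WT-labelled library, with replicates within a few percent of each other. The difference was 1.89-fold, a log2 fold change of 0.92 (SE 0.06), and the adjusted p was 1.3e-06 by edgeR's quasi-likelihood test. Neat1 (chromosome 19, 5824708 to 5845478, minus strand) had 909, 908 and 933 CPM in the KO-labelled libraries and 720, 742 and 740 CPM in the WT-labelled libraries. Its 1.25-fold difference (log2 0.32, SE 0.03, adjusted p 2.1e-05 by the same test) was smaller than that of Malat1 but again had no overlap. Leaving out any library kept the log2 fold change of Malat1 between 0.89 and 0.93 and that of Neat1 between 0.31 and 0.33. Other annotated genes lie on the same strand within both genes, and 453 nt of Malat1, or 6.5% of it, is shared with Gm37376, so a small part of its reads may be split by the counting. All 4 neutrophil markers were also higher in the KO-labelled libraries, and their part in these levels was not tested.

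Among nuclear RNAs outside the 57, Firre and Kcnq1ot1 were also higher. Of 11 genes on the list of nuclear architecture and X inactivation, Malat1 and Neat1 included, 8 could be tested. Of these, 4 were higher, the other 4 did not pass, and the median log2 fold change of the 8 was 0.43. For this list and those below, the shares over all genes tested were 11.5% higher and 10.5% lower. Firre, an X-linked RNA that helps organise chromosomes in the nucleus, had 23.8, 24.2 and 25.3 CPM in the KO-labelled libraries and 18.7, 18.5 and 16.8 CPM in the WT-labelled libraries (log2 0.44, SE 0.09, adjusted p 0.0039 by edgeR's quasi-likelihood test). Kcnq1ot1, which silences an imprinted domain, had 7.44, 6.21 and 7.0 CPM in the KO-labelled libraries and 4.44, 4.71 and 5.51 CPM in the WT-labelled libraries (log2 0.49, adjusted p 0.043 by that test). Both had all KO-labelled libraries above all the WT-labelled libraries. Tug1 had a log2 fold change of 0.18 and its adjusted p was 0.17 by that test.

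Genes for proteins of the bodies in which these RNAs are found moved in both directions. Of 15 tested, 2 were higher and 4 lower, beside 11.5% and 10.5% of all genes tested. Sfpq, a core paraspeckle protein, had 27.3, 31.9 and 30.4 CPM in the KO-labelled libraries and 40.4, 41.1 and 42.0 CPM in the WT-labelled libraries (log2 -0.46, adjusted p 0.0015 by edgeR's quasi-likelihood test). Its partner Nono had 25, 27.9 and 31.0 CPM in the KO-labelled libraries and 32.6, 35.5 and 35.3 CPM in the WT-labelled libraries (log2 -0.30, adjusted p 0.037 by that test). The speckle scaffold genes Son and Srrm2 were higher, with log2 fold changes of 0.35 and 0.48. Srsf3, a splicing factor, was lower at -0.53, and Hnrnpk at -0.30.

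The mouse Norad gene 2900097C17Rik (chromosome 2, 156388065 to 156392979, minus strand), whose repeated Pumilio motifs are shown above, was lower. It had 44.9, 41.2 and 46.7 CPM in the KO-labelled libraries and 59.8, 59.6 and 61.6 CPM in the WT-labelled libraries. The groups were well apart, at 1.36-fold lower (log2 -0.45, SE 0.07, adjusted p 0.00066 by edgeR's quasi-likelihood test). By limma on log2(FPKM + 1) without a filter the adjusted p was 0.079. A near copy, Gm7292, shares 2537 nt at 99.2% identity, 51.6% of the transcript, and had 0.482 to 0.739 CPM in the KO-labelled libraries and 0.832 to 1.33 in the WT-labelled libraries, so reads may have been divided between them.

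Cyrano and Bvht gave no call. Oip5os1, with the miR-7 site shown above, had 112, 127 and 125 CPM in the KO-labelled libraries and 131, 130 and 126 CPM in the WT-labelled libraries. The ranges overlapped and the log2 fold change was -0.09 (SE 0.06, adjusted p 0.30 by edgeR's quasi-likelihood test). Bvht, which in mouse embryonic stem cells is needed for commitment to the cardiac lineage, had 5.74, 5.2 and 5.34 CPM in the KO-labelled libraries and 6.0, 5.84 and 6.10 CPM in the WT-labelled libraries. Its log2 fold change was -0.14 with an adjusted p of 0.55 by that test. Of 13 genes on the list of cytoplasmic regulators and p53 targets, 6 could be tested; Norad was lower and the other 5 did not pass.

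Among the snoRNA hosts, Snhg18 was lower. Snhg18, the host of Snord123 (chromosome 15, 32240565 to 32244662, minus strand), had 3.37, 2.28 and 4.01 CPM in the KO-labelled libraries and 4.90, 6.21 and 7.06 CPM in the WT-labelled libraries. The groups did not overlap, and the log2 fold change was -0.91 (SE 0.23, adjusted p 0.017 by edgeR's quasi-likelihood test). The call was lost without replicate 2 of the KO-labelled libraries (adjusted p 0.053) or without replicate 2 or 3 of the WT-labelled libraries (0.052 and 0.071), by the same test, and by limma on log2(FPKM + 1) without a filter (0.14). Snhg6 had 4.35, 3.58 and 3.95 CPM in the KO-labelled libraries and 3.87, 4.76 and 3.02 CPM in the WT-labelled libraries. Epb41l4aos had 2.68, 2.09 and 1.52 CPM in the KO-labelled libraries and 2.10, 1.71 and 2.30 CPM in the WT-labelled libraries. Both pairs of ranges overlapped, with adjusted p of 0.95 each by that test. Snhg12 and Snhg20 had log2 fold changes of -0.30 and -0.33 with adjusted p of 0.35 and 0.29.

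The whole list of snoRNA hosts held 17 genes in the table, 5 of them members, and 15 were tested. Of these, 2 were lower, beside 10.5% of all genes tested. The other 13 did not pass, and the median log2 fold change of the 15 was -0.15. Besides Snhg18, the lower host was Gas5, the best known of the snoRNA hosts. Gas5 had 28.5, 27.1 and 27.2 CPM in the KO-labelled libraries and 31.4, 33.7 and 33.1 CPM in the WT-labelled libraries (log2 -0.25, adjusted p 0.034 by edgeR's quasi-likelihood test). No gene was called among the 7 tested microRNA hosts or the 10 tested genes of nonsense-mediated decay, an RNA degradation pathway. Of 8 genes for snoRNP proteins, 1 was higher, Nhp2 (log2 0.36). Of 14 genes of the nuclear exosome, which degrades many noncoding RNAs, Exosc5 was higher at 0.56 and Rbm7 lower at -0.57, and of 7 genes of microRNA processing Tarbp2 was higher at 0.58 and Ago1 lower at -0.68.

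In the muscle group, 2310065F04Rik, also known as linc-MYH, lies among the myosin heavy chain genes of fast muscle on chromosome 11 (67112461 to 67120080, minus strand). In mouse it is known as a regulator of fast fibre genes. It had 7.96, 7.63 and 7.67 CPM in the KO-labelled libraries and 14.6, 17.7 and 17.1 CPM in the WT-labelled libraries. Every KO-labelled library was below every WT-labelled library, at 2.12-fold lower (log2 -1.09, SE 0.11, adjusted p 4.9e-05 by edgeR's quasi-likelihood test). The myosin genes of the same cluster that are on the marker list went the other way: Myh1, Myh2 and Myh4 had log2 fold changes of 0.42, 1.04 and 1.43. Of the 10 skeletal muscle markers 7 were higher and 1 lower, and their part in the level of the lincRNA was not tested. Of 6 genes on the list of muscle and micropeptide loci 5 were tested, 1 higher and 1 lower. The higher was 1810058I24Rik (log2 0.54, adjusted p 0.0026 by edgeR's quasi-likelihood test). The lower was Mrln, which encodes myoregulin, an inhibitor of the calcium pump SERCA (log2 -1.81, adjusted p 0.00073 by that test). Mrln had 2.16, 2.05 and 1.06 CPM in the KO-labelled libraries and 5.30, 6.14 and 7.02 CPM in the WT-labelled libraries.

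Lncbate1, named for its need in brown adipocyte differentiation in mouse and picked out here after its values were seen, had 1.84, 1.5 and 1.64 CPM in the KO-labelled libraries and 2.28, 2.35 and 2.06 CPM in the WT-labelled libraries. The groups did not overlap, yet the log2 fold change of -0.42 had 0.30 as its adjusted p by edgeR's quasi-likelihood test.

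The other members that were higher in the KO-labelled libraries have no well-established role. Gm11827 (chromosome 4, 11122805 to 11126998, plus strand) is one of the members that passed the level threshold only through a single group, with 5.24, 3.93 and 3.51 CPM in the KO-labelled libraries against 1.21, 0.682 and 1.57 CPM in the WT-labelled libraries. That is 3.66-fold higher (log2 1.87, SE 0.32). 2310008N11Rik (chromosome 8, 26814593 to 26882695, minus strand) had 6.32, 5.65 and 6.31 CPM in the KO-labelled libraries and 3.16, 1.6 and 2.46 CPM in the WT-labelled libraries, a log2 fold change of 1.34 (adjusted p 0.0023 by edgeR's quasi-likelihood test). Its groups did not overlap, and it was still called after leaving out any single library.

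2310020H05Rik had 6.87, 4.65 and 6.23 CPM in the KO-labelled libraries and 2.87, 2.83 and 2.35 CPM in the WT-labelled libraries, a log2 fold change of 1.14 (SE 0.20, adjusted p 0.0022 by edgeR's quasi-likelihood test). 4930429F24Rik had 3.5, 4.53 and 5.62 CPM in the KO-labelled libraries and 2.04, 2.56 and 2.21 CPM in the WT-labelled libraries. Its log2 fold change of 1.0 (adjusted p 0.0096) had an adjusted p of 0.056 without replicate 3 of the KO-labelled libraries, both by that test. It lies 134 bp from Tmem30a on the opposite strand, pointing away from it.

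2310075C17Rik (chromosome 9, 112227579 to 112228242, plus strand) lies within Arpp21, which encodes a cAMP-regulated phosphoprotein, on the opposite strand. The lincRNA had 2.39, 2.19 and 2.0 CPM in the KO-labelled libraries and 0.774, 1.03 and 0.527 CPM in the WT-labelled libraries (log2 1.49, SE 0.35, adjusted p 0.011 by edgeR's quasi-likelihood test). Arpp21 had 2.92, 2.26 and 2.84 CPM in the KO-labelled libraries and 0.894, 0.932 and 1.42 CPM in the WT-labelled libraries (log2 1.30, adjusted p 0.011 by that test). No label or file header gives the strand setting of the counting, so reads of the lincRNA and of Arpp21 cannot be told apart.

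B230312C02Rik (chromosome 2, 180370491 to 180385885, minus strand) was lower, and passed the level threshold only through the WT-labelled libraries. It had 1.18, 0.903 and 1.05 CPM in the KO-labelled libraries and 3.78, 3.78 and 4.95 CPM in the WT-labelled libraries. The groups were far apart, at 3.99-fold lower (log2 -2.0, SE 0.25). Gm13861 (chromosome 6, 34651354 to 34653894, minus strand) lies opposite Cald1, a gene for an actin-binding protein of smooth muscle and other cells. Gm13861 had 0.828, 0.766 and 0.730 CPM in the KO-labelled libraries and 1.79, 2.30 and 1.37 CPM in the WT-labelled libraries, and Cald1 had 26.4, 22.4 and 30 CPM in the KO-labelled libraries and 58.5, 72.3 and 63.6 CPM in the WT-labelled libraries. The log2 fold change was -1.23 for Gm13861 (adjusted p 0.031) and -1.30 for Cald1 (adjusted p 1.3e-05), both by edgeR's quasi-likelihood test. The call for Gm13861 was lost without any of replicates 1, 2 and 3 of the KO-labelled libraries or replicates 1 and 2 of the WT-labelled libraries (adjusted p 0.065 to 0.12 by that test), and its reads cannot be told apart from those of Cald1. Of the 7 smooth muscle markers 6 were lower as well, and so were all 6 fibroblast markers, and their part in the result was not tested.

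Erdr1 and Gm47283 share sequence and are described together. Erdr1 is on the X chromosome (170009659 to 170019281) and Gm47283 on the Y (90784738 to 90816464), and GENCODE lists both as protein-coding. A run of 529 nt, nearly the whole of the 531-nt longest Erdr1 transcript, is identical to Gm47283. Gm47283 had 20.4, 18.4 and 19.3 CPM in the KO-labelled libraries and 65.4, 66.4 and 80.8 CPM in the WT-labelled libraries. Erdr1 had 11.7, 12.1 and 10.9 CPM in the KO-labelled libraries and 28.7, 33.3 and 16.5 CPM in the WT-labelled libraries. No library of the group labelled KO reached the lowest of the group labelled WT for either gene, with log2 fold changes of -1.87 (adjusted p 2.1e-07) and -1.18 (adjusted p 0.002) by edgeR's quasi-likelihood test. Erdr1 was not called by limma on log2(FPKM + 1) without a filter (adjusted p 0.066). No label or file header says how reads were divided between the copies, so neither level is certain on its own.

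Gm44386 and AU020206, both abundant, were lower by smaller amounts. Gm44386 had 12.6, 12.4 and 11.5 CPM in the KO-labelled libraries and 17, 14.6 and 18.5 CPM in the WT-labelled libraries (log2 -0.46, adjusted p 0.013, and 0.057 without replicate 3 of the WT-labelled libraries, by edgeR's quasi-likelihood test). AU020206 had 31.6, 29.1 and 32.0 CPM in the KO-labelled libraries and 40, 39.1 and 38.0 CPM in the WT-labelled libraries (log2 -0.34, adjusted p 0.0065 by that test). Neither had overlapping groups in CPM, but neither was called by limma on log2(FPKM + 1), with adjusted p of 0.087 for Gm44386 and 0.11 for AU020206.

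**Figure D3:**
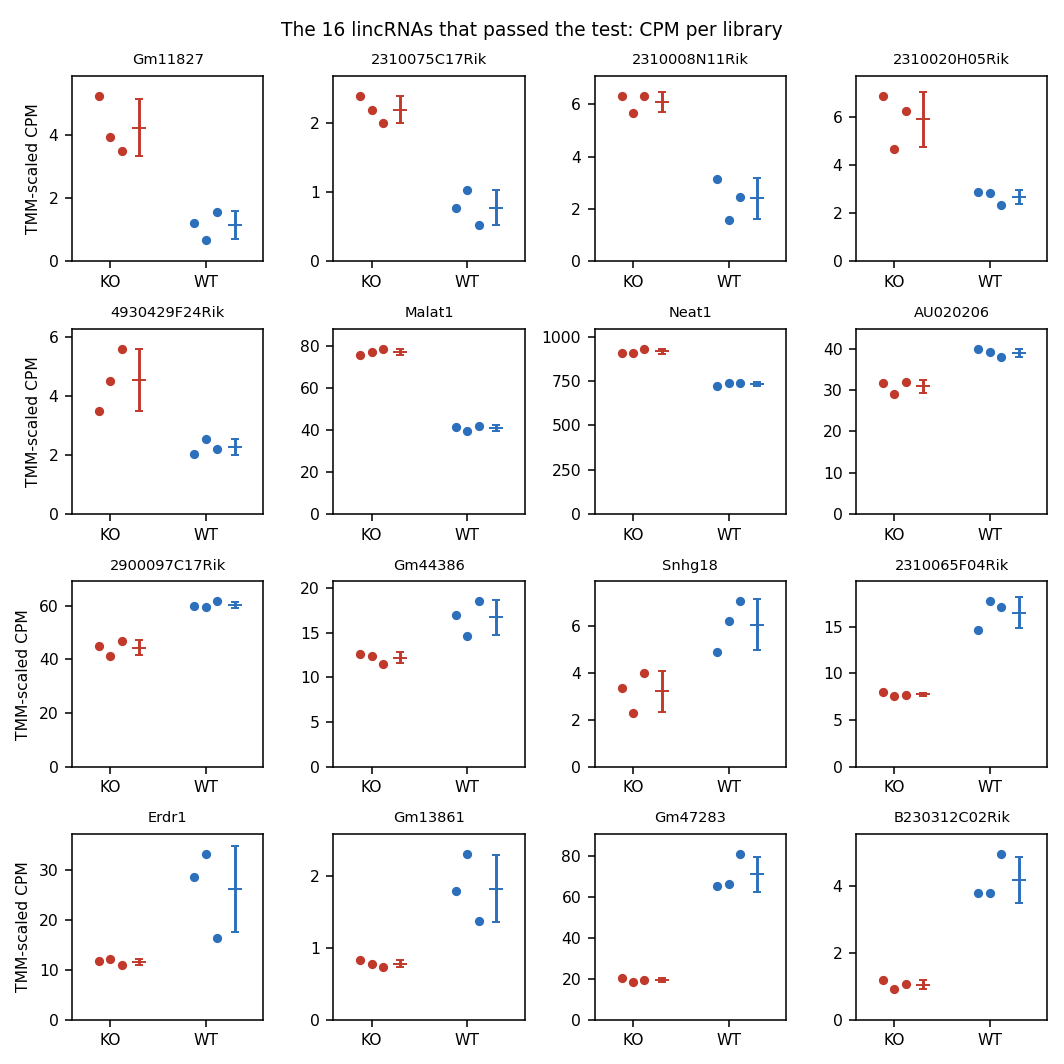
TMM-scaled CPM of the 16 lincRNAs that passed the test, with the 3 KO-labelled libraries on the left and the 3 labelled WT on the right of each panel, and a bar for the mean and SD. No panel has overlapping groups, and the vertical axis of each starts at 0.

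The members that gave no call include the most abundant. Gm10076 had 32.7, 15.4 and 53.1 CPM in the KO-labelled libraries and 40, 28.6 and 37.9 CPM in the WT-labelled libraries, a spread so wide in the KO-labelled libraries that the whole of the other group lay inside it (log2 -0.07, adjusted p 0.91 by edgeR's quasi-likelihood test). Rpl41, with which it shares nearly its whole sequence, had 238, 261 and 174 CPM in the KO-labelled libraries and 169, 182 and 155 CPM in the WT-labelled libraries. In the KO-labelled libraries the library with the lowest Gm10076 had the highest Rpl41 and the library with the highest Gm10076 had the lowest. AW112010, known in mouse immune cells and shown there to be translated, had 13.9, 16.9 and 17 CPM in the KO-labelled libraries and 19.3, 19 and 17.5 CPM in the WT-labelled libraries (log2 -0.22, adjusted p 0.17 by that test). 2310040G24Rik had 9.58 ± 1.77 FPKM in the KO-labelled libraries and 7.48 ± 0.337 in the WT-labelled libraries (SD, n = 3 each), with an adjusted p of 0.40 by that test.

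Of the 41 members that were not called, some had large folds with wide replicates; those named in the next sentences were chosen after their values were seen. Gm49539 and Gm12319 had log2 fold changes of -0.87 and 1.42 (adjusted p 0.053 and 0.10 by edgeR's quasi-likelihood test), and neither had overlapping groups. Gm7607 and Gm32391 had log2 fold changes of -1.56 and 1.21. Gm7607 averaged 0.643 FPKM in the KO-labelled libraries and Gm32391 0.624 FPKM in the WT-labelled libraries. Both passed the level threshold only through the group where they were high, so their values are given as a description. Gm49749, whose whole transcript lies in Pcnx, had 0.871, 2.27 and 0.317 CPM in the KO-labelled libraries and 0.983, 0.183 and 1.34 CPM in the WT-labelled libraries, and the groups overlapped throughout. Over the members, the within-group coefficient of variation had a median of 14.8% in the KO-labelled libraries and 18.8% in the WT-labelled libraries, with a range of 1.51% to 98.5%. It passed 50% for 8 members, 7 of which had under 100 counts on average. Of the 12 members under 100 counts 1 was called, against 6 of the 9 members with at least 1000.

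**Figure D4:**
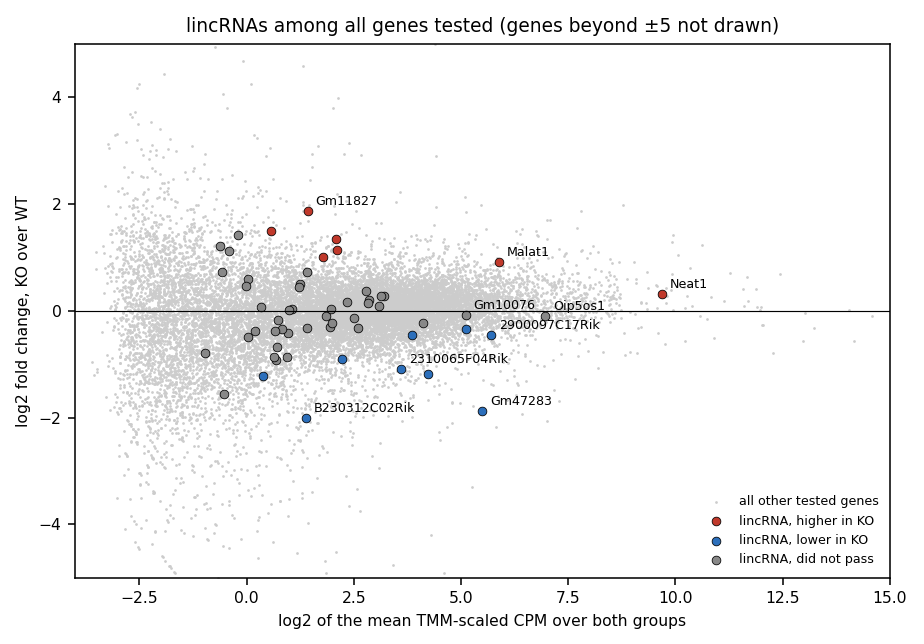
Log2 fold change, KO-labelled libraries over WT, against the log2 mean CPM for the 16620 genes tested (grey) and the 57 lincRNAs (red higher, blue lower, dark grey not called). Genes beyond the range of the vertical axis are not drawn. Neat1, at the right, is called at 1.25-fold and Malat1 at 1.89-fold, while the called members of lowest CPM, 2310075C17Rik and Gm13861, differ by more than 2-fold.

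The other lincRNAs, below the level threshold, gave fewer calls: of 308 tested, 7 were higher and 5 lower, or 3.9%. This difference was not tested, and the number of counts differs between the sets.

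The members sit in different gene neighbourhoods on 20 chromosomes, and 28 have a protein-coding gene within 5 kb. Of those pairs, 8 are divergent, 6 convergent, 9 on the same strand and 5 overlapping. Both partners were called in 2 pairs, each time in the same direction: 2310075C17Rik with Arpp21 and Gm13861 with Cald1, the overlapping pairs described above. The lincRNA alone was called in 4, the neighbour alone in 11 and neither in 9. The neighbours of the other 2 pairs, Oip5 beside Oip5os1 and Mcmdc2 beside Snhg6, were not tested. Of all genes tested 22% were called, and the part that the neighbours' levels play in these counts was not tested. Next to Neat1, Frmd8, 4224 bp away on the same strand, had a log2 fold change of -0.22 (adjusted p 0.48 by edgeR's quasi-likelihood test), and Sema5a, 148 bp from Snhg18 and pointing away from it, had -2.08 (adjusted p 0.14 by that test). Gm50194 and its neighbour Got1 were picked out after their values were seen. Got1, which encodes an aminotransferase of the cytosol, was higher at 0.82 while the lincRNA's value was 0.17.

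**Figure D5:**
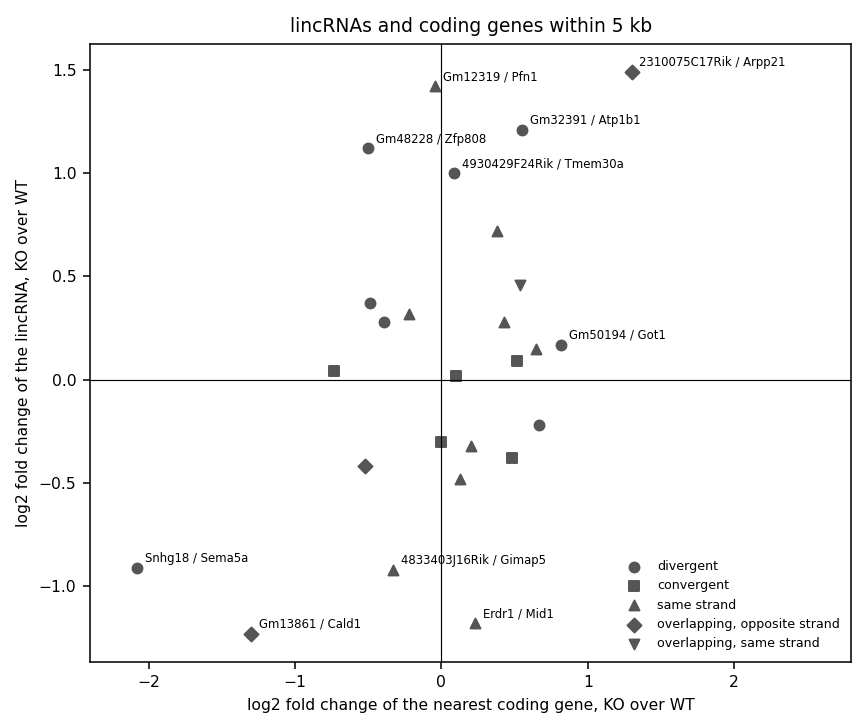
Log2 fold change of each lincRNA against that of the nearest protein-coding gene within 5 kb, for the 26 pairs whose neighbour could be tested, KO-labelled libraries over WT, with a symbol for the orientation of the pair. The pairs 2310075C17Rik with Arpp21 and Gm13861 with Cald1 lie in the upper right and lower left. In every other pair at least 1 partner was not called.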

How the data were processed

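Per the labels' protocols, 6 libraries of poly(A) RNA were read as pairs by Illumina sequencing. The authors deposited a table of whole-number counts, without normalization, and FPKM values per the file headers, with no account of how these were computed. Bowtie 0.12.2, HISAT2 2.0 and the build mm8 are named in the submitters' processing notes. No label or header names a counting program or strand setting. Deposited coordinates matched GENCODE release 21 (GRCm38) exactly for 91.1% of shared genes and for 54 of the 57 lincRNAs, so positions are given as GRCm38. Low counts (up to 40) fell on multiples of 4 in 33.0% to 34.9% of values, against 25% by chance.

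Counts were fitted with edgeR 4.0.16 in R 4.3.3 (filterByExpr, TMM scaling, quasi-likelihood F-test on genotype, two-sided, Benjamini-Hochberg over 16620 genes, threshold 0.05). CPM are TMM-scaled and use all counts, mitochondrial ones included. The fit was tested on simulated data drawn from its own estimates, so that test cannot show whether its model suits these counts. Alternatives used limma 3.58.1 and DESeq2 1.42.0, other filters and scalings, and leaving out each library. Shared sequence was searched with BLAST 2.17.0 (at least 200 nt at 95% identity), and figures were drawn with matplotlib 3.10.9. Sequences are from GENCODE transcripts and, for the microRNA, from RefSeq (GRCm38). Named are members of role lists, called members without overlap between groups, the 10 most abundant members, those next to the threshold, neighbours within 5 kb and leading partner genes. The members and lists were chosen with earlier results of these data known.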

Additional observations from a re-analysis of the deposited data

How the results depend on the processing

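Of the 16 called members, 9 kept their call under all 15 alternatives tried for single members, and none changed sign. Of the 41 members not called, 11 were called in at least 1 alternative. DESeq2 called 10 members higher and 13 lower, beside 2600 higher and 2629 lower of 21316 genes. Limma on log2(FPKM + 1) and on log2(FPKM + 0.1) each called 14 members higher, or 24.6%, beside 32.5% and 32.2% of all genes. Limma on log2(FPKM + 1) without a filter called 5 lower, where 2.65% of all genes were lower. Among the 36 members overlapping no other gene, 4 were higher and 7 lower, beside 11.5% and 10.5% of all genes tested. Leaving out a library gave 6 to 8 members higher and 7 to 9 lower. Over all genes these fits called 1465 to 1703 higher and 1411 to 1468 lower, of 17359 to 17540 tested. The replicate block gave 7 higher and 8 lower, losing Gm13861, beside 1703 higher and 1552 lower of 16620 genes. Same-numbered libraries did not deviate together (correlations 0.024, -0.009 and 0.018), so their numbers were not taken as pairs. Under limma with a pseudocount of 1, a pseudocount of 0.1 and no filter, the log2 fold change turned positive for Oip5os1 (0.055, 0.058, 0.055), Bvht (0.0093, 0.01, 0.0093) and D830026I12Rik (0.038, 0.058, 0.038). Leaving out libraries turned the sign of uncalled members: Gm10076 ran from -0.56 to 0.27, Epb41l4aos from -0.18 to 0.23, 3300002P13Rik from -0.37 to 0.075, Snhg6 from -0.12 to 0.2, Gm26532 from -0.22 to 0.21, Gm50194 from -0.025 to 0.44, D830026I12Rik from -0.24 to 0.027, Gm49749 from -0.49 to 0.97, 5830454E08Rik from -1.32 to 0.05, 1700096K18Rik from -0.39 to 0.058, Halr1 from -0.6 to 0.039 and Gm40477 from -0.26 to 0.67. The cause was not tested. Members under 100 counts limit the precision.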
